A study of Homo sapiens with 4 samples.

Results

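Ribosome biogenesis is the set of steps by which a cell makes ribosomes, and 47 genes of it, with the genes of RNA polymerase I, were followed here in ovarian cancer cells treated with wogonin. The members were taken by gene name from the deposited tables, and each of the 47 names matched 1 of the 57773 genes listed. The libraries came from A2780, an established human ovarian adenocarcinoma line labelled WT. The treated group holds 2 libraries, numbered 3 and 4, from cells given wogonin, a plant flavone, at 10 ug/mL for 48 h, and the vehicle group holds 2 libraries, numbered 1 and 2, from cells given DMSO, with no time stated. The study asks whether wogonin restrains ovarian cancer growth through DNA demethylation, and transcript levels alone do not answer that.

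In the nucleolus, RNA polymerase I transcribes ribosomal DNA into a long precursor RNA. Small nucleolar RNPs (snoRNPs), which are guide RNAs bound to a fixed set of proteins, methylate and pseudouridylate that precursor. Processing factors then cut and fold it into the small and the large ribosomal subunit before export to the cytoplasm, and cancer cells often run this pathway at a high rate to sustain growth.

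Each library held between 11005921 and 11839562 exon reads, and a member had between 253 and 16963 exon reads in a library. The labels do not state whether the 2 libraries of a group are separate cultures, and the p-values rest on the spread between them, which may be technical. Mitochondrial genes took 3.03% of exon reads in wogonin 4 and between 1.45 and 1.67% in the others, and the intron share of gene reads, over genes with exons, was 7.96% in wogonin 3 and 5.26 to 5.61% in the others. Of the markers of the labelled tissue, PAX8, WT1, KRT8, KRT18, KRT19, EPCAM and MUC16 had between 0 and 9 reads in any library. The immune genes PTPRC and CD3E and the endothelial gene CDH5 had 0 reads in all 4 libraries, which allows up to 0.273 CPM in the shallowest. A further endothelial gene, PECAM1, was not found under that name. CD68 stood at 38.4 and 26.3 TPM in wogonin 3 and 4 and at 33.2 and 40.9 TPM in DMSO 1 and 2. Of the fibroblast genes, the collagen gene COL3A1 stood at 354 and 331 TPM in wogonin and 474 and 448 TPM in DMSO. The others were far lower. COL1A1 had 2.88 and 2.91 TPM in wogonin and 5.56 and 4.59 TPM in DMSO. DCN had 0.552 and 0.603 TPM in wogonin and 0.845 and 1.0 TPM in DMSO. LUM had 1.98 and 2.32 TPM in wogonin and 2.15 and 2.58 TPM in DMSO. In bulk RNA, fewer cells of one kind and less RNA per cell cannot be told apart.

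Most of the ribosome biogenesis genes were higher after wogonin. Of the 47 members, all of which passed the filter on low counts, 31 rose (66.0%), 3 fell (6.38%) and 13 did not pass an adjusted p of 0.05 (edgeR quasi-likelihood test on exon reads, Benjamini-Hochberg over 13449 genes). In the same test 32.3% of all genes were higher and 31.5% lower. The median log2 fold change of the members was 0.35, against -0.00 over all genes tested. A rise of 1 log2 unit or more was seen in 5 members, POLR1A, LTV1, TSR1, RRP12 and BOP1, and in 6.31% of all genes. A rise of 0.5 or more was seen in 17 members and in 18.3% of all genes. When TMM was replaced by plain library totals or by upper quartiles, the counts were 27 higher and 9 lower, the members' median was 0.26 and the median of all genes -0.09. In TMM-scaled CPM, 34 members had both wogonin libraries above both DMSO libraries (72.3%, against 41.0% of all genes). In 7 members they lay below (40.9% of all genes). These counts depend on the scaling. In the authors' TPM the libraries of NCL, FBL, UBTF and WDR12 overlapped, and NPM1, GAR1, NHP2, NOP10 and WDR75 were lower in both wogonin libraries.

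**Figure D1:**
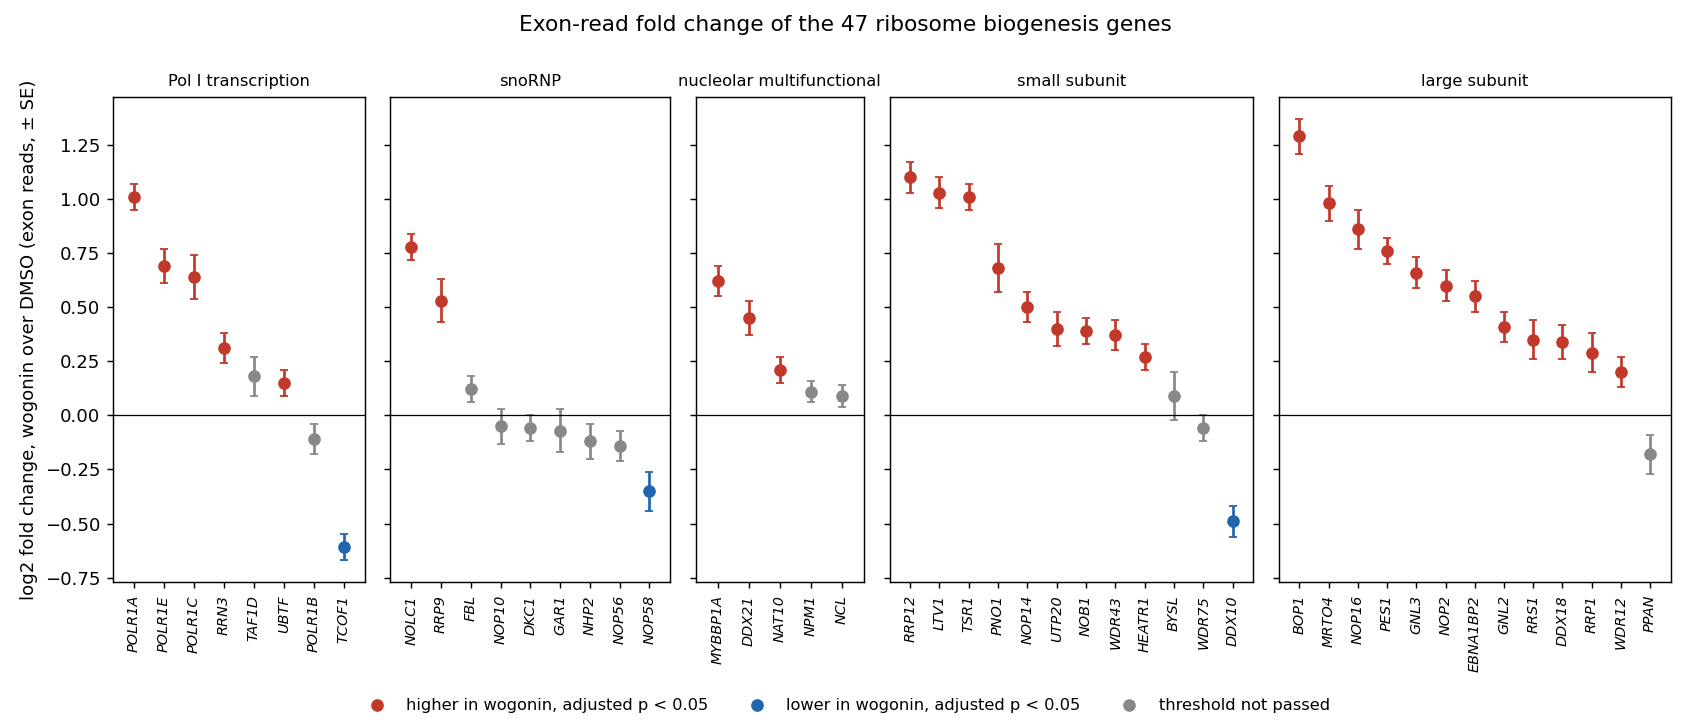
Log2 fold change of exon reads, wogonin over DMSO, for each of the 47 members in 5 classes, with the standard error as bars; red marks genes called higher, blue genes called lower and grey genes that did not pass. Of the 13 large-subunit genes, 12 are red, while 6 of the 9 snoRNP genes are grey.

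The reads of the 47 members made up 0.891% of exon reads in wogonin 3 (95% Wilson interval 0.886 to 0.897%) and 0.903% in wogonin 4 (0.898 to 0.909%), against 0.768% in DMSO 1 (0.763 to 0.773%) and 0.792% in DMSO 2 (0.787 to 0.797%). Both wogonin libraries were thus above both DMSO libraries. Without NCL and NPM1, the 2 members with the most reads, the shares were 0.632 and 0.646% in wogonin and 0.513 and 0.535% in DMSO. These intervals hold the counting error of reads alone and no spread between libraries. No molecular identifiers are given, so reads may not be independent molecules and the intervals may be too narrow.

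Levels can be compared between genes in the authors' TPM, which allows for exon length. NPM1, the nucleolar histone chaperone nucleophosmin, was highest at 1510 and 1510 TPM in wogonin and 1520 and 1560 TPM in DMSO. In TMM-scaled CPM the order of its groups was reversed, with 1452 and 1529 CPM in wogonin and 1369 and 1384 CPM in DMSO. NOLC1, NCL, DDX21, NOP10 and FBL followed, between 428 and 775 TPM in wogonin and between 444 and 687 TPM in DMSO. In wogonin NOLC1 stood second at 770 and 775 TPM, above NCL at 699 and 624 TPM. In DMSO NCL stood above it, at 682 and 687 TPM against 484 and 510 TPM for NOLC1. The lowest member was UTP20, at 34.2 and 31.0 TPM in wogonin and 26.0 and 28.7 TPM in DMSO.

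Promoter letters are a feature that the choice of members did not use. RefSeq promoters (GRCh38.p14, a build other than that of the read tables) were found for 39 of the 47 members. BOP1, DDX18, NOLC1, NOP58, POLR1E, RRP12, RRS1 and TCOF1 had no entry in that table. The 250 bases before each start were searched on both strands for 4 motifs that transcription factors are known to bind. The ETS core CCGGAAG was found in 11 of the 39 (28.2%), against 16.2% of the 9348 promoters of genes tested here and 8.82% of all 27303. The E-box CACGTG, which MYC and related factors bind, was found in 4 (10.3%), against 9.12% and 6.49%. The NRF1 motif, GCGCA followed by its reverse complement, was found in 4 (10.3%), against 2.05% and 1.13%. The palindrome made of TCTCG and its reverse complement was found in 1 (2.56%), against 0.845% and 0.41%. The last 3 motifs read the same on both strands, and ETS matches on opposite strands can share bases, as in CTTCCGGAAG. An ETS core was held by 6 of 25 promoters of members that rose and by 5 of 13 that did not pass. An E-box was held by 3 of the 25 and by 1 of the 13. The NRF1 motif was held by 2 of the 25, by 1 of the 13 and by the 1 promoter of a member that fell, DDX10. The stretches below, 60 bases each read 5′ to 3′ toward the start, are shown to set promoters of genes that rose beside those of genes that did not, with matches in capitals. The first 4 are from genes that rose and hold an ETS core, and the fifth is from a gene that rose and holds an E-box. The last 2, with an ETS core, are from genes that did not pass. They are examples only. An ETS core was also held by DDX21 and RRP9, which rose, and by FBL, NOP10 and TAF1D, which did not pass. NOP10 held 2 E-boxes as well.
TSR1, chr17:2336458-2336517, minus strand: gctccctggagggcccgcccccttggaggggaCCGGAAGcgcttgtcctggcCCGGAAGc
LTV1, chr6:143843254-143843313, plus strand: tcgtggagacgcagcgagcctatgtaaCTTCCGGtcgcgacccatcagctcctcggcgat
NOP16, chr5:176388599-176388658, minus strand: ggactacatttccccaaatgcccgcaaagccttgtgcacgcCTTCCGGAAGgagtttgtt
POLR1C, chr6:43516938-43516997, plus strand: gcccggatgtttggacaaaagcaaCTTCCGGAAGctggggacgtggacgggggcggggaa
UTP20, chr12:101280045-101280104, plus strand: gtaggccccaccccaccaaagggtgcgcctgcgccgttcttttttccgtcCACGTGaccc
POLR1B, chr2:112541883-112541942, plus strand: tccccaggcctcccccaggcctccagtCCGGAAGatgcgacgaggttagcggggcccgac
GAR1, chr4:109815450-109815509, plus strand: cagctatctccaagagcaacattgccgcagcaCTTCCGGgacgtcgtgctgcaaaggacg
A match is a run of letters only and says nothing about binding in these cells.

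In the RNA polymerase I machinery, 5 of 8 members rose, 1 fell and 2 did not pass. POLR1A, the largest subunit of the enzyme (ENSG00000068654, hg 19 chromosome 2, 86247339 to 86333278), stood at 232 and 237 CPM in wogonin and at 120 and 113 CPM in DMSO. The groups lay far apart, with a log2 difference of 1.01 ± 0.06 (SE, edgeR adjusted p = 1.0e-09). POLR1B, the second-largest subunit, with which POLR1A forms the catalytic centre, stood at 93.5 and 98.4 CPM in wogonin and 103 and 104 CPM in DMSO (-0.11 ± 0.07, edgeR adjusted p = 0.18). Scaled by plain library totals or by upper quartiles it was called lower, at -0.20 (edgeR adjusted p = 0.017). The transcripts of the 2 subunits thus did not change alike in value, although the difference between them was not tested. POLR1E, which takes part in initiation (ENSG00000137054, chromosome 9, 37485932 to 37503694), had 88.5 and 95.8 CPM in wogonin and 58.4 and 55.5 CPM in DMSO, with a log2 difference of 0.69 ± 0.08 (SE, edgeR adjusted p = 8.8e-07). POLR1C, shared with RNA polymerase III, rose by 0.64 log2 units in all exon reads and by 0.27 in reads that cross an exon junction. It overlaps XPO5 and YIPF3 on the opposite strand, and the sources used here do not say whether reads were counted by strand.

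RRN3, which recruits the polymerase to the promoter, rose by 0.31 log2 units, and only 34.6% of its exon reads were uniquely placed. In uniquely placed exon reads its log2 fold change was 0.32. RRN3 lies within PDXDC1 on the opposite strand. UBTF, the architectural factor of active ribosomal DNA, had 229 and 213 CPM in wogonin and 198 and 200 CPM in DMSO. Its rise of 0.15 log2 units (edgeR adjusted p = 0.035) lost the call in 13 of 18 alternatives. TAF1D, a subunit of the selectivity factor SL1, had groups that overlapped, at 99.2 and 113 CPM in wogonin and 85.2 and 101 CPM in DMSO (log2 fold change 0.18, edgeR adjusted p = 0.096), and it gained a call in 4 of 18 alternatives. TCOF1 encodes treacle, a nucleolar scaffold for polymerase I transcription whose mutation causes Treacher Collins syndrome. It was the member with the largest fall (ENSG00000070814, chromosome 5, 149737202 to 149779871), at 140 and 134 CPM in wogonin and 216 and 201 CPM in DMSO, with a log2 difference of -0.61 ± 0.06 (SE, edgeR adjusted p = 4.2e-07).

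**Figure D2:**
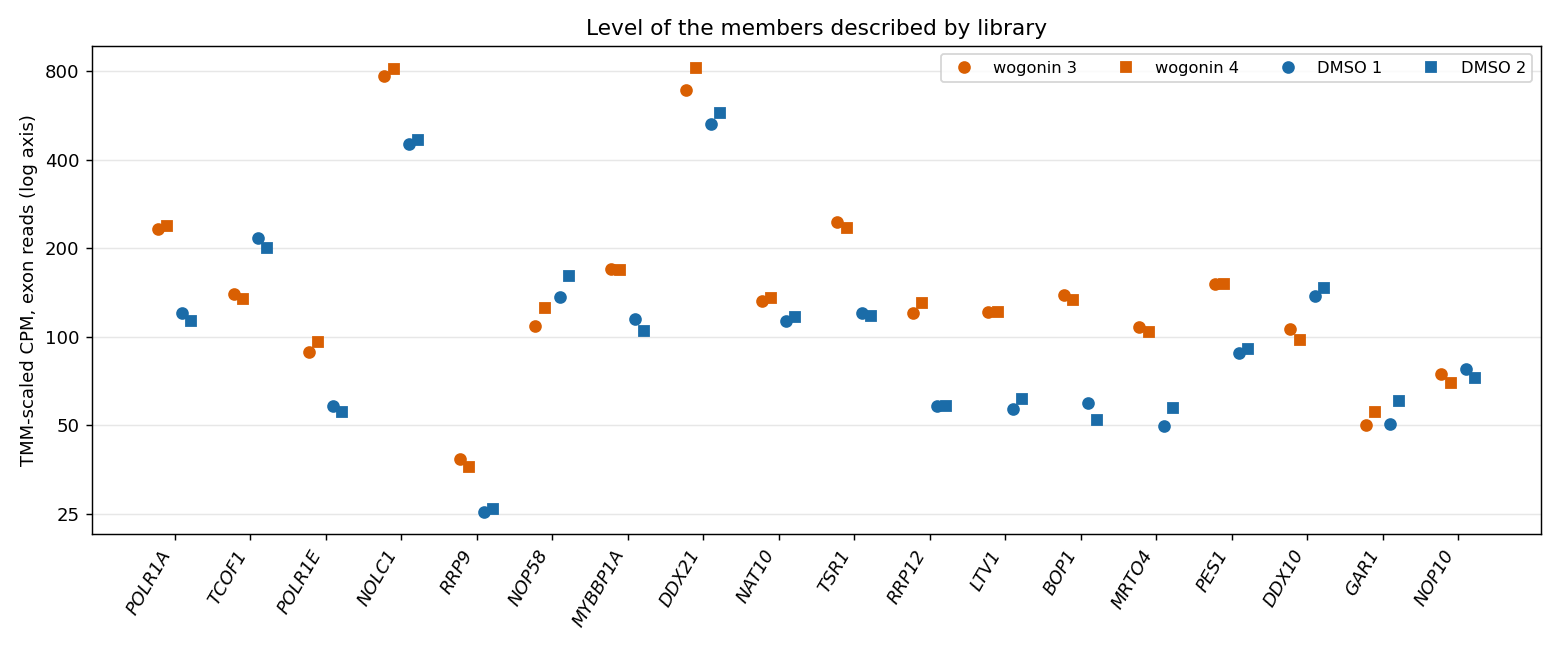
TMM-scaled CPM of exon reads (log axis) in each of the 4 libraries for the 18 members given in full, with wogonin in orange and DMSO in blue. The colours separate for 16 genes, with TCOF1, NOP58 and DDX10 lower in wogonin, and they overlap for GAR1 and NOP10.

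Of 9 snoRNP genes, 2 rose (22.2%), 1 fell (11.1%) and 6 did not pass, and their median was -0.06 (log2), with 32.3% of all genes higher and 31.5% lower. Classes were not tested against each other, and SNU13, a further box C/D core protein that rose, is given with the wider pathway. The box C/D core, which guides ribose methylation, had FBL, the methyltransferase fibrillarin, at 254 and 246 CPM in wogonin and 228 and 233 CPM in DMSO (0.12 ± 0.06, edgeR adjusted p = 0.082). NOP58 (ENSG00000055044, chromosome 2, 203130439 to 203168389) had 109 and 125 CPM in wogonin and 137 and 161 CPM in DMSO, with a log2 difference of -0.35 ± 0.09 (SE, edgeR adjusted p = 0.0038). Without DMSO 2 that call was lost, at -0.24 (edgeR adjusted p = 0.057). Its partner NOP56 stood at -0.14 (edgeR adjusted p = 0.072) and would be called lower in 9 of 18 alternatives. RRP9, which binds the U3 RNP needed for the first cuts of the precursor, had 38.3 and 36.1 CPM in wogonin and 25.4 and 26.0 CPM in DMSO (0.53 ± 0.10, edgeR adjusted p = 1.7e-04).

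None of the 4 proteins of the box H/ACA core, which guides pseudouridylation, passed, and none reached an unadjusted p of 0.05 in edgeR or an adjusted p of 0.05 in DESeq2 or limma-voom. DKC1, the pseudouridine synthase dyskerin, had 138 and 143 CPM in wogonin and 143 and 150 CPM in DMSO (-0.06 ± 0.06, edgeR adjusted p = 0.38). GAR1 had 50.2 and 55.7 CPM in wogonin and 50.4 and 60.6 CPM in DMSO (-0.07 ± 0.10, edgeR adjusted p = 0.55). NOP10 had 75.0 and 69.4 CPM in wogonin and 77.5 and 72.4 CPM in DMSO (-0.05 ± 0.08, edgeR adjusted p = 0.57). For both genes the groups overlapped. NHP2 stood at -0.12 (edgeR adjusted p = 0.24). Scaled by plain library totals or by upper quartiles, DKC1 and NHP2 would be called lower. NOLC1, a chaperone that brings snoRNPs to the nucleolus (ENSG00000166197, chromosome 10, 103911933 to 103923627), differed from that core in value. It had 767 and 814 CPM in wogonin and 453 and 468 CPM in DMSO, with a log2 difference of 0.78 ± 0.06 (SE, edgeR adjusted p = 6.0e-09).

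Among the 5 nucleolar proteins with several roles, 3 rose and 2 did not pass. MYBBP1A, a nucleolar protein that also acts on transcription factors (ENSG00000132382, chromosome 17, 4442192 to 4458926), had 170 and 168 CPM in wogonin and 115 and 105 CPM in DMSO (0.62 ± 0.07, edgeR adjusted p = 5.5e-07). DDX21, an RNA helicase of precursor processing, had 689 and 818 CPM in wogonin and 527 and 578 CPM in DMSO (0.45 ± 0.08, edgeR adjusted p = 8.5e-04). NAT10, the enzyme that acetylates cytidines of 18S ribosomal RNA, had 132 and 135 CPM in wogonin and 113 and 117 CPM in DMSO (0.21 ± 0.06, edgeR adjusted p = 0.0084), and the call was lost in 5 of 18 alternatives. The 2 most abundant of the 5 by reads did not pass. NCL, nucleolin, had 1216 and 1145 CPM in wogonin and 1116 and 1101 CPM in DMSO (0.09, edgeR adjusted p = 0.16), and NPM1 had 1452 and 1529 CPM in wogonin and 1369 and 1384 CPM in DMSO (0.11, edgeR adjusted p = 0.071). NPM1 gained a call in 3 of 18 alternatives.

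Factors of the small subunit rose in 9 of 12 cases, with 1 lower and 2 that did not pass, and their median log2 fold change was 0.39. RRP12, LTV1 and TSR1 had the largest rises of the 12. RRP12, needed for maturation and export of the particles (ENSG00000052749, chromosome 10, 99116115 to 99161127), had 120 and 130 CPM in wogonin and 58.4 and 58.3 CPM in DMSO (1.10 ± 0.07, edgeR adjusted p = 2.9e-09). LTV1, an assembly factor that in yeast leaves before the final steps (ENSG00000135521, chromosome 6, 144164481 to 144184949), had 121 CPM in each wogonin library and 56.7 and 61.7 CPM in DMSO (1.03 ± 0.07, edgeR adjusted p = 5.5e-09). TSR1, a GTPase-like factor that in yeast blocks early entry of initiation factors (ENSG00000167721, chromosome 17, 2225797 to 2240801), had 245 and 234 CPM in wogonin and 120 and 118 CPM in DMSO (1.01 ± 0.06, edgeR adjusted p = 8.9e-10). All 3 were about doubled, with fold changes of 2.14 for RRP12, 2.05 for LTV1 and 2.01 for TSR1.

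PNO1, the partner of the endonuclease NOB1, rose by 0.68 log2 units in all exon reads and 0.54 in the uniquely placed ones, which were 49.4% of its reads. It lies within RP11-474G23.1 on the opposite strand. NOB1, which makes the last cut that yields 18S ribosomal RNA, rose by 0.39. Of the early processome, NOP14 rose by 0.50, UTP20 by 0.40, WDR43 by 0.37 and HEATR1 by 0.27. NOP14 overlaps NOP14-AS1 on the opposite strand by 23806 bases. WDR75 (-0.06, edgeR adjusted p = 0.44) and BYSL (0.09, edgeR adjusted p = 0.47) had overlapping groups. DDX10, an RNA helicase (ENSG00000178105, chromosome 11, 108535752 to 108811657), was the exception in direction, at 106 and 97.5 CPM in wogonin and 138 and 147 CPM in DMSO (-0.49 ± 0.07, edgeR adjusted p = 1.1e-05).

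The large-subunit factors had the highest share of rises among the 5 classes, 12 of 13, with a median of 0.55. None was lower by edgeR, at an adjusted or an unadjusted p of 0.05, or by DESeq2 or limma-voom, but PPAN was called lower in 3 of its 16 alternatives. BOP1, PES1 and WDR12 form the PeBoW complex, which is needed to process 28S and 5.8S ribosomal RNA. BOP1 (ENSG00000170727, chromosome 8, 145486055 to 145515082) had 139 and 133 CPM in wogonin and 59.5 and 52.3 CPM in DMSO, the largest rise of any member (1.29 ± 0.08, edgeR adjusted p = 9.2e-10). Only 20.4% of its exon reads were uniquely placed, and in those the log2 fold change was 1.5. PES1 (ENSG00000100029, chromosome 22, 30972612 to 31003070) had 151 CPM in each wogonin library and 88.0 and 90.6 CPM in DMSO (0.76 ± 0.06, edgeR adjusted p = 4.3e-08). WDR12 rose by 0.20 (edgeR adjusted p = 0.014), a call that was lost in 8 of 18 alternatives. The 3 subunits of the complex thus stood in the order BOP1, PES1, WDR12, with values further apart than their standard errors.

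MRTO4, a paralogue of the ribosomal stalk protein P0 that in yeast holds its place during assembly (ENSG00000053372, chromosome 1, 19578033 to 19586622), had 108 and 104 CPM in wogonin and 49.9 and 57.5 CPM in DMSO (0.98 ± 0.08, edgeR adjusted p = 3.2e-08). NOP16 rose by 0.86, GNL3, the GTPase nucleostemin, by 0.66, NOP2, a cytosine methyltransferase of 28S ribosomal RNA, by 0.60, and EBNA1BP2 by 0.55. NOP16 lies within ARL10 on the opposite strand, and 68.8% of its exon reads were uniquely placed. Further members, such as GNL3 with PBRM1 and WDR12 with CARF, also overlap genes on the opposite strand. Smaller rises were those of GNL2 (0.41), RRS1 (0.35), DDX18 (0.34) and RRP1 (0.29), and the call of RRP1 was lost in 7 of 18 alternatives. PPAN did not pass (-0.18, edgeR adjusted p = 0.085). It was called lower in junction reads (-0.38, edgeR adjusted p = 0.0016) and with plain library totals or upper quartiles (-0.27, edgeR adjusted p = 0.012). Only 0.8% of its exon reads were uniquely placed, and the readthrough gene PPAN-P2RY11 lies over it on the same strand, so its reads cannot be assigned with certainty.

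MYC, a transcription factor known to drive ribosome biogenesis genes, was lower in the same libraries. It had 128 and 136 CPM in wogonin and 171 and 147 CPM in DMSO (-0.27 ± 0.07, edgeR adjusted p = 0.0052), and without DMSO 1 the call was lost (-0.17, edgeR adjusted p = 0.090).

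The wider pathway was read from 145 other genes of ribosome biogenesis, of which 144 passed the filter. Of these, 86 rose (59.7%), 17 fell (11.8%) and 41 did not pass, and the median was 0.30 (log2). Among 13 other subunits and factors of RNA polymerase I, several of them shared with polymerases II or III, 9 rose and none fell, by edgeR at an adjusted or unadjusted p of 0.05, DESeq2 or limma-voom. POLR1D, shared with polymerase III, had 193 and 190 CPM in wogonin and 104 and 106 CPM in DMSO (0.86 ± 0.06, edgeR adjusted p = 5.6e-09), and POLR2H rose by 0.77. Of 9 tested snoRNP assembly genes 6 rose and 1 fell. They included SNU13, the box C/D core protein that binds the guide RNA first, with 213 and 201 CPM in wogonin and 110 CPM in each DMSO library (0.91 ± 0.06, edgeR adjusted p = 3.3e-09), and the ATPase RUVBL1.

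Further small-subunit factors rose in 30 of 46 cases and fell in 4. UTP14A (1.21 ± 0.08, edgeR adjusted p = 2.0e-09) and NOL6 (1.20 ± 0.08, edgeR adjusted p = 1.9e-09) led them, while UTP18 fell by 1.27 on the log2 scale. Further large-subunit factors rose in 32 of 48 cases and fell in 4, with DDX24 at 0.87 and SDAD1 at 0.96 among the rises and RPF1 at -1.18 among the falls. UTP18 and RPF1 were named after their values were seen. Of 17 genes of the exosome and other RNA decay factors, 5 rose (29.4%) and 4 fell (23.5%), with a median of -0.00. Over all genes 32.3% were higher and 31.5% lower, and the difference from those shares was not tested. ISG20L2, an exonuclease of 5.8S maturation, rose by 0.60, and the exosome helicase MTREX (SKIV2L2 in the tables) fell by 0.53.

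**Figure D3:**
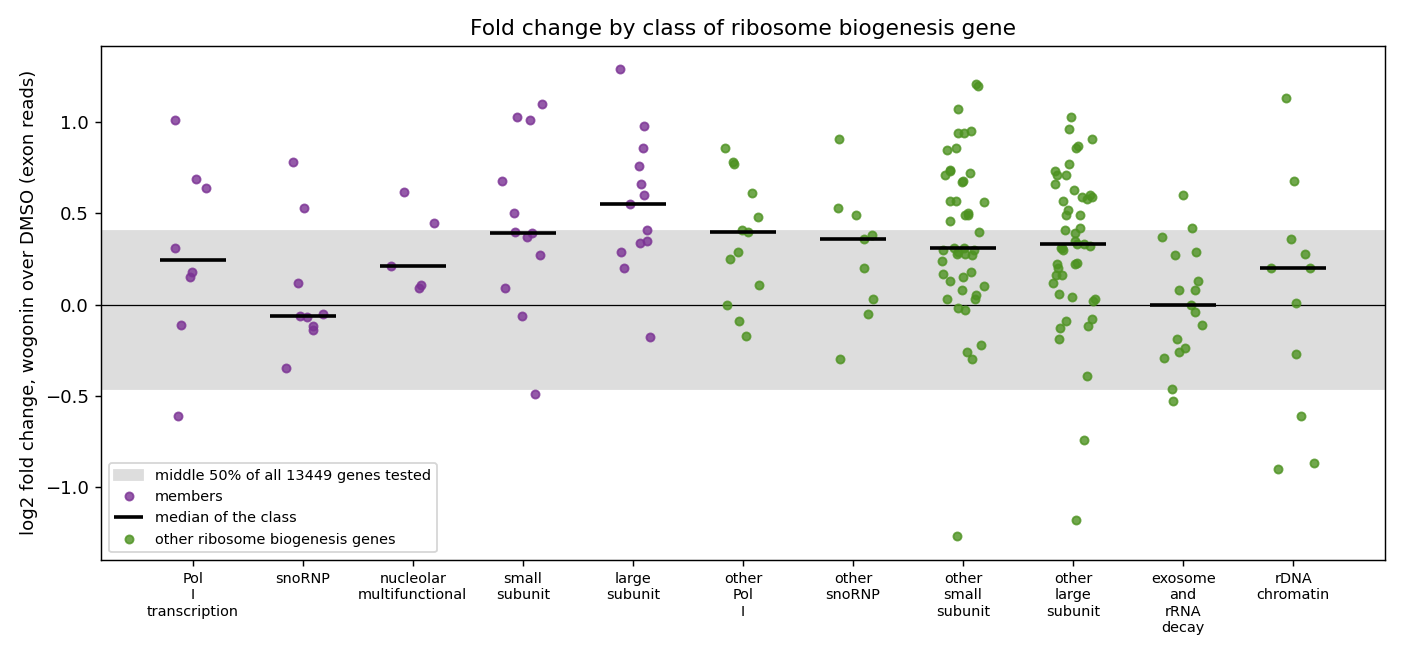
Log2 fold change of exon reads, wogonin over DMSO, for the 5 classes of members (purple) and 6 classes of other ribosome biogenesis genes (green), 1 point per gene, with the class median as a black line. The grey band holds the middle of all genes tested, from -0.46 to 0.40. The large-subunit members have their median, 0.55, above it, and the snoRNP members have theirs, -0.06, within it. The medians of the Pol I transcription, nucleolar and small-subunit members, 0.25, 0.21 and 0.39, are also within it.

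Some of the members carry genes for small nucleolar RNAs between their start and end. Whether each lies in an intron was not determined. In the deposited annotation, 8 members held 32 snoRNA entries on their own strand (17.0% of members, against 2.65% of all genes tested). They were TAF1D, NOP56, NOP58, DKC1, NCL, WDR43, GNL3 and PPAN. TSR1 holds SNORD91A and SNORD91B, which the annotation lists under another class, and it was not counted. Of these 8 hosts, 2 rose, 1 fell and 5 did not pass, and the median was 0.01 (log2). Of the other 39 members, 29 rose and 2 fell, with a median of 0.40. Over all 357 tested genes that host a snoRNA entry, 149 rose and 87 fell, with a median of 0.09. This split was made after the values were seen and was not tested.

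Intron reads give a second readout of the same libraries, so they are not independent of the exon reads. Members were chosen with earlier results of these data known. The intron reads of all 47 members together were 2.67% and 2.07% of their gene reads in wogonin 3 and 4, against 1.36% and 1.37% in DMSO 1 and 2. Over the 9516 genes tested in both kinds of read, the shares were 7.92% and 5.48% in wogonin 3 and 4, and 5.28% and 5.29% in DMSO. The 2 sets are unlike, because the members' share includes 6 genes with too few intron reads to be tested. In 29 of 41 tested members both wogonin libraries had a higher intron share than both DMSO libraries (70.7%), and in 3 a lower one (7.32%), against 42.5% and 10.3% of all genes.

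Fitted on their own, intron reads were higher in 9 of 41 members and lower in none, also at an unadjusted p of 0.05 (edgeR quasi-likelihood test), with 11.0% of all genes higher and 10.1% lower. The count of 9 was 3 without DMSO 1, 3 without DMSO 2, 19 without wogonin 3 and 15 without wogonin 4, with 45, 45, 43 and 42 members tested. Without wogonin 3, 1 member was lower, and without wogonin 4, 2 were. Wogonin 3 also had the highest intron share over all genes, and its part in these counts is given by the values without it. A model over exon and intron reads of the same libraries, chosen after the data were seen, asked whether the 2 kinds of read changed by different amounts. It called 5 members higher in intron relative to exon reads and 2 lower, against 5.3% and 5.29% of all genes. The count of 5 was 2 without DMSO 1, 1 without DMSO 2, 12 without wogonin 3 and 8 without wogonin 4.

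NHP2 gave the largest such difference. It had 149 and 126 intron reads in wogonin and 11 and 14 in DMSO, while its exon reads were 942 and 816 in wogonin and 1083 and 1040 in DMSO. Its intron change exceeded its exon change by 3.24 ± 0.37 log2 units (SE, edgeR adjusted p = 9.6e-05). It overlaps RMND5B on the opposite strand by 1106 bases. UTP20 had 160 and 111 intron reads in wogonin and 31 and 24 in DMSO, a difference of 1.56 ± 0.32 log2 units (SE, edgeR adjusted p = 0.0061). MRTO4 had 28 and 29 in wogonin and 2 and 3 in DMSO, so its difference of 2.20 ± 0.59 (SE, edgeR adjusted p = 0.027) rests on few reads. For all 3 genes the wogonin and DMSO libraries did not overlap.

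DKC1 had 42 and 34 intron reads in wogonin and 14 and 10 in DMSO (1.39 ± 0.38, edgeR adjusted p = 0.029), and PPAN had 125 and 114 in wogonin and 54 and 57 in DMSO (0.96 ± 0.29, edgeR adjusted p = 0.048). BOP1 and TSR1 went the other way. BOP1 had 34 and 27 intron reads in wogonin and 30 and 38 in DMSO while its exon reads more than doubled, a difference of -1.79 ± 0.35 (SE, edgeR adjusted p = 0.0046). TSR1 had 63 and 40 in wogonin and 48 and 43 in DMSO, a difference of -1.19 ± 0.29 (SE, edgeR adjusted p = 0.019), and it overlaps SRR on the opposite strand. POLR1A was similar in value (-0.68 ± 0.30) but did not pass (edgeR adjusted p = 0.17).

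**Figure D4:**
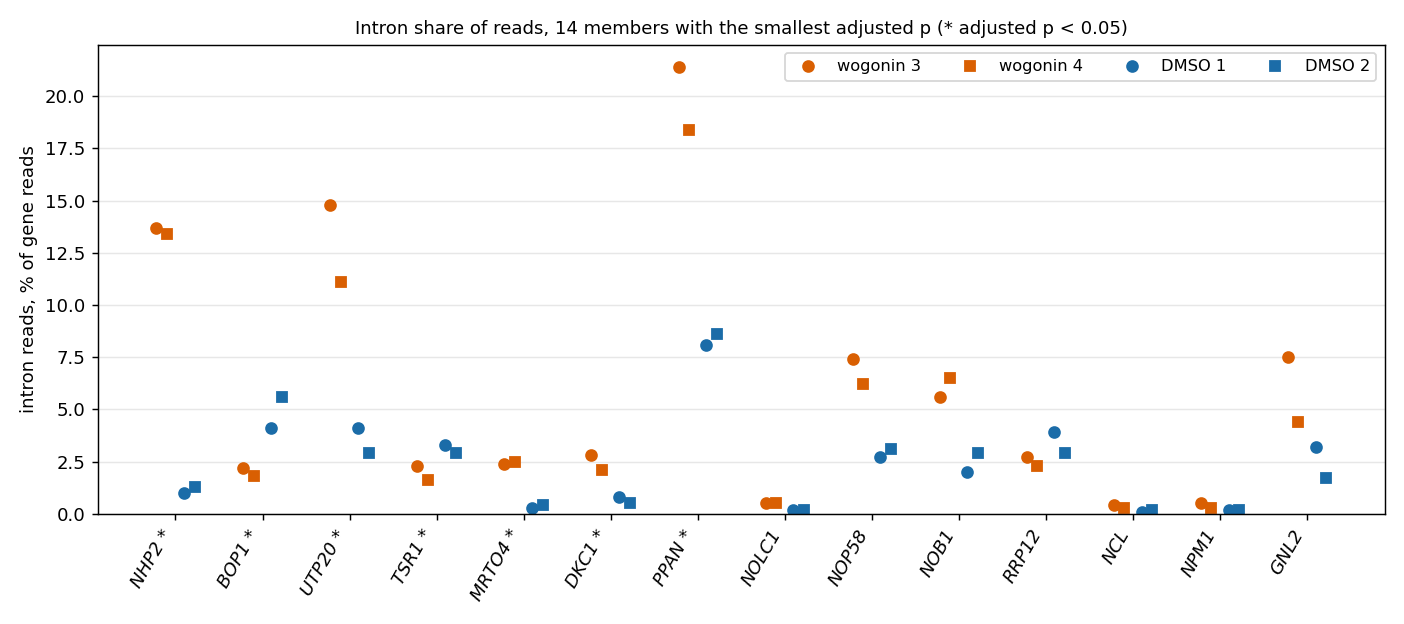
Intron reads as a percentage of gene reads in each library (wogonin orange, DMSO blue) for the 14 members with the smallest adjusted p in the test of intron against exon change; a star marks an adjusted p under 0.05. In NHP2 the wogonin libraries stand at 13.7% and 13.4%, against 1.0% and 1.3% in DMSO, while in BOP1 they stand at 2.2% and 1.8%, below 4.1% and 5.6% in DMSO.

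Reads that cross an exon junction come from spliced RNA. Fitted on those reads, 28 of 46 tested members rose and 6 fell, against 27.6% and 28.0% of all genes, with a median log2 fold change of 0.33. RRS1 had no such reads in any library. NOP56 (-0.26), NHP2 (-0.21) and PPAN (-0.38) were called lower in this readout beside TCOF1, NOP58 and DDX10, and WDR12 and UBTF were not called.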

How the data were processed

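For each of the 4 libraries the authors deposited a table of counts per gene, per the file headers: total and uniquely placed exon, intron, gene and exon-exon reads. The tables also hold TPM and RPKM made by the authors from exon reads, and a fraction of unique or intron reads, per the file headers. RPKM and the fractions were not used. The submitters' processing notes name GRCh 37 and hg 19; the aligner and counter, and whether counting used strand, are not stated there.

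Total exon counts entered the quasi-likelihood test of edgeR 4.0.16 (R 4.3.3; filterByExpr, TMM, robust fit, treatment as the single term, 2-sided, Benjamini-Hochberg over all genes, threshold 0.05). CPM were scaled by TMM. Alternatives covered scaling, filters, DESeq2 1.42.0, limma-voom 3.58.1, read columns, exon length and leaving out each library; junction reads, a GC trend, removal of mitochondrial genes and the exon against intron model were added after the data were seen. On simulated counts with 13449 genes the exon test recovered 67% of changes of 0.5 and 83% of changes of 1 log2 unit. Only 106 genes were changed by 0.5 and 94 by 1, drawn from genes of all levels. Far more genes were called in the data, so the adjusted threshold differs and these rates do not give the recovery for the members. Intron reads were fitted alone over 10820 genes, and with exon reads in a model with a term for each library.

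Members and lists were chosen with earlier results of these data known. Given in full are the 3 members of each class with the smallest adjusted p and members called lower. The 2 members with the largest adjusted p and MYC are also given in full. The 2 other ribosome biogenesis genes of each class with the smallest adjusted p are named, some with fewer values or none. Other members are named with fewer values. No 2 libraries were copies: chi-square divided by its degrees of freedom came to 6.73 between the wogonin libraries and 2.87 between the DMSO libraries.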

Additional observations from a re-analysis of the deposited data

How the results depend on the processing

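No member changed sign with a call in any of the 18 alternatives to the exon fit. Of the 34 called members, 28 kept their call in every alternative in which they were tested; UBTF, WDR12, RRP1, NAT10, RRN3 and NOP58 lost it in some. Of the 13 uncalled members, 9 gained a call in some alternative: NOP56, NHP2, TAF1D, NPM1, PPAN, DKC1, POLR1B, WDR75 and FBL. The members called lower, 3 as reported, were 9 with library totals alone and with upper-quartile scaling and 6 in exon-exon junction reads. The members' median of 0.35 was 0.26 with either of those scalings and 0.28 in total gene reads, and ranged from 0.29 to 0.38 when a library was left out. The other ribosome biogenesis genes called lower, 17 as reported, were 10 with DESeq2. Leaving out 1 library gave 3 to 19 members higher and 0 to 2 lower in intron reads, and 1 to 12 higher in intron relative to exon reads; the cause was not tested. A group then has a lone library, which is assumed to vary like the other group. BOP1 had no GC value, RRS1 no junction test and PPAN no test in uniquely placed reads. No paired analysis was possible because the groups share no replicate numbers. With 2 libraries a group, an exact test of a single gene is too small to pass a threshold, and intron reads, often under 100 a gene, limit that readout.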

Other observations

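Of 11 regulators of ribosomal DNA chromatin, 4 rose (36.4%), 4 fell (36.4%) and 3 did not pass, shares near those of all genes, 32.3% and 31.5% (edgeR quasi-likelihood test, adjusted p under 0.05 over all genes). BAZ2A, the large subunit of the silencing complex NoRC, had 422 and 409 CPM in wogonin and 263 and 254 CPM in DMSO (log2 fold change 0.68 ± 0.06, SE, edgeR adjusted p = 2.3e-08). Its partner in that complex, the remodelling ATPase SMARCA5, had 216 and 228 CPM in wogonin and 403 and 427 CPM in DMSO (-0.90 ± 0.06, edgeR adjusted p = 1.9e-09). RRP8, a subunit of the energy-dependent silencing complex eNoSC, rose by 1.13 log2 units. Of its partners, SUV39H1 rose by 0.28 (edgeR adjusted p = 0.037) and SIRT1 fell by 0.61. Only 22.8% of the exon reads of SUV39H1 were uniquely placed, and in junction reads it did not pass (0.14, edgeR adjusted p = 0.59). The demethylase genes KDM2B and KDM2A fell by 0.87 and 0.27. RRP8, SUV39H1, SIRT1, KDM2A and KDM2B were named after their values were seen. Transcript levels do not measure silencing of ribosomal DNA or the output of RNA polymerase I.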
